A study of Mus musculus with 38 samples.

Results

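The nuclear-encoded oxidative phosphorylation genes described here are those whose mouse symbols mark subunits of respiratory complexes I to IV or of the ATP synthase. The symbols begin with Nduf and a subunit letter and number, Uqcr, Cox4 to Cox8 and a letter a to c, or Atp5. Sdha, Sdhb, Sdhc, Sdhd and Cyc1 belong to the rule too. No Cox4 gene matched, and a list of 6 other subunits outside the symbol rule is not described here. Of 57010 gene IDs in the count table, 96 matched, and the 77 with a mean of 50 or more raw counts over the 38 libraries that were not named as pseudogenes were kept. There were 35 genes of complex I, 4 of complex II, 9 of complex III, 12 of complex IV, 16 of the ATP synthase and Atp5s, a coupling factor. Of the 19 left out, 8 had pseudogene symbols and 11 were below the minimum. Ndufb1-ps was left out for its symbol although it averaged 555.3 raw counts. Cox6a2 lay just inside it (76.5 raw counts on average) and Ndufa4l2 just outside (37.9). All 77 passed the low-count filter of every fit.

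The libraries are bulk RNA-seq of mouse medial prefrontal cortex, 1 library per labelled sample. Mutant mice carried the SSTCre:γ2f/f genotype and control mice SSTCre alone, so Cre, driven in somatostatin interneurons, was present in all 38. CVS mice went through 21 days of chronic variable stress, and NS mice were not stressed. There were 4 male mutant CVS, 3 male mutant NS, 6 male control CVS and 5 male control NS libraries, and 5 female libraries in each of the 4 matching groups. The labels give no age, and do not say whether mice shared a litter, cage or dissection day or whether the sexes were processed together. In bulk tissue, a change confined to somatostatin cells is diluted by all other cells, and fewer cells of a type cannot be told apart from less RNA per cell.

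Oxidative phosphorylation passes electrons from NADH through complex I, or from succinate through complex II, to complexes III and IV, and the proton gradient built by complexes I, III and IV drives the ATP synthase. Most subunits are encoded in the nucleus and imported, and they assemble with the few subunits encoded by mitochondrial DNA. Neurons meet most of their demand for ATP by this route, and fast-spiking parvalbumin interneurons are known for an especially high demand.

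Library totals ran from 17.64 M to 27.51 M counts with a mean of 21.06 ± 2.275 M (SD, n = 38), and the 77 genes together took 0.748% to 0.899% of each. Mitochondrial transcripts took 5.13% to 6.66% of counts in male libraries, against 3.26% to 4.08% in female libraries. A single gene ID took 0.045% to 0.406% in male and 4.21% to 7.83% in female libraries. Averages and comparisons over both sexes span this split, and its cause was not tested. Excitatory neuron markers summed to between 6033 and 8021 CPM in each library and choroid plexus markers to between 2.45 and 9.03 CPM. CPM is the count scaled to the library total after TMM adjustment, within a sex except where levels of different genes are compared. For Cdhr1, Gm12663, Pttg1 and Ccng1 it is the count scaled to the raw total. 3 libraries had high Cdhr1, an olfactory bulb marker: male mutant NS replicate 2 held 25.68 CPM, replicate 3 of that group held 27.77 CPM and male control CVS replicate 1 held 16.61 CPM, against 1.69 to 5.16 CPM elsewhere. Medians of the 77 genes without these libraries are given below, but values of single genes are not. The library labelled male mutant CVS replicate 1 carried mixed genotype marks: it had 0 counts of Gm12663, which allows up to 0.156 CPM at 3 counts of its total, where every other mutant library had 1.15 CPM or more, and 19.64 CPM of Pttg1, within the control range of 15.59 to 21.56 CPM. Its Ccng1 level of 96.1 CPM was within the range of the other mutant libraries (80.7 to 102.0 CPM) and above that of the control libraries (60.59 to 81.49 CPM). Medians of the 77 genes that include it, and the values of several genes, are also given without it.

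The most abundant of the 77 transcripts per length belonged to complex IV and the ATP synthase. Levels of different genes are compared as CPM per kilobase of transcript, averaged over all 38 libraries with CPM scaled over both sexes together. The SDs of these levels therefore include any difference between the sexes. Cox8a, a small subunit of complex IV, was highest at 533.4 ± 43.39 CPM per kb, followed by Atp5b, the catalytic beta subunit of the ATP synthase, at 490.2 ± 21.32, and Cox6a1, the widely expressed form of complex IV subunit VIa, at 398.2 ± 33.21 (SD, n = 38). The SDs of the first and second of these overlapped. The lowest were Cox6a2, the heart and muscle form of the same subunit, at 5.33 ± 1.30 CPM per kb, Atp5s at 8.28 ± 0.691 and Ndufb8, a membrane-arm subunit of complex I, at 16.98 ± 3.38. Lengths are those of each gene's shortest principal transcript. With the longest principal transcript the 3 highest genes were the same, but Ndufb2 would stand at 3.73 CPM per kb, below Cox6a2, against 35.83 with the shortest, and Uqcrq at 58.5, against 219.7. The median level was 181.1 CPM per kb in complex IV, 146.4 in the ATP synthase, 132.0 in complex III, 71.0 in complex I and 65.95 in complex II.

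**Figure D1:**
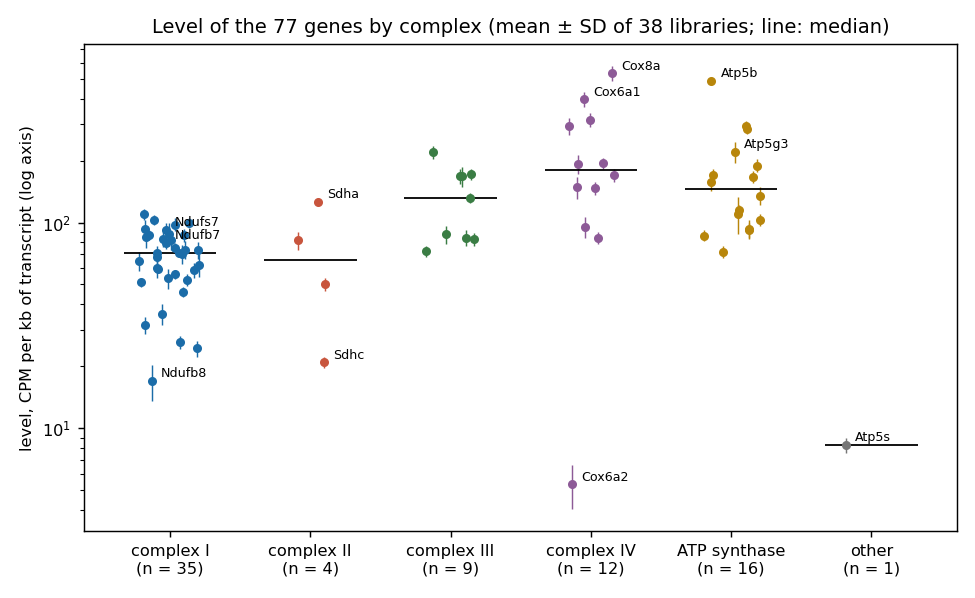
Level of each of the 77 genes in CPM per kilobase of transcript (log axis) by complex; points are means over 38 libraries, bars are SDs and black lines are complex medians. Complex IV holds both the highest gene, Cox8a at 533.4 CPM per kb, and the lowest at these lengths, Cox6a2 at 5.33.

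Within complexes, core subunits were spread over a wide range of levels per length. In complex I, Ndufv1, which binds NADH, stood at 86.9 ± 4.83 CPM per kb, Ndufs7, which carries the last iron-sulfur cluster before ubiquinone, at 92.4 ± 7.5, and Ndufb7, an accessory subunit on the intermembrane side of the membrane arm, at 79.8 ± 5.78. Ndufs1, the largest iron-sulfur subunit, stood at 45.87 ± 2.56 and Ndufa9 at 56.0 ± 2.88. In complex II the flavoprotein Sdha was at 125.8 ± 5.88 CPM per kb, the iron-sulfur protein Sdhb at 81.8 ± 8.0, and the membrane anchors Sdhd and Sdhc at 50.1 ± 3.46 and 20.86 ± 1.28. The order of these 4 subunits was separated by more than their SDs.

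Complex III and the ATP synthase showed the same breadth. In complex III the core protein Uqcrc1 stood at 132.0 ± 7.52 CPM per kb, cytochrome c1 (Cyc1) at 87.6 ± 8.65 and the Rieske protein Uqcrfs1 at 72.6 ± 4.43. Atp5a1, the alpha subunit of the ATP synthase, stood at 296.0 ± 16.45 CPM per kb and Atp5o, the stalk subunit that confers oligomycin sensitivity, at 72.3 ± 5.01. Of the 3 genes for the same c subunit of the proton-driven ring, Atp5g3 was highest at 221.4 ± 26.18 CPM per kb, Atp5g1 next at 167.0 ± 11.92 and Atp5g2 lowest at 103.4 ± 7.29. The length of Atp5g1 depends on the transcript chosen: with its longest principal transcript its level would be 21.11 CPM per kb.

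In the isoform sets of complex IV, the ubiquitous form was far above the muscle form. Cox6a1 stood at 398.2 CPM per kb, against 5.33 for Cox6a2. Cox7a2 (146.7 ± 10.98 CPM per kb) and Cox7a2l (95.2 ± 10.67), which takes part in joining complexes III and IV, were members, whereas the muscle form Cox7a1 averaged 15.42 raw counts and fell below the minimum. The testis form Cox6b2 and the muscle form Cox8b averaged 21.0 and 1.32 raw counts, against members Cox6b1 (194.6 CPM per kb) and Cox8a. Ndufa4, first described in complex I and now placed in complex IV, stood at 294.7 ± 26.57 CPM per kb. Cox5a, Cox5b and Cox6c were at 148.3 ± 17.56, 170.1 ± 12.04 and 316.1 ± 23.50.

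The promoter sequences of the members most often discussed below are shown for the sequence elements around their start sites. Promoter windows from 250 bases before to 50 bases after the start site were available for 64 of the 77 genes (RefSeq, GRCm38.p6). The 100 bases before the start site are printed 5′ to 3′ on the gene's strand, with capitals marking a match to a motif on either strand.
Ndufb7, chr8:83566658-83566757, plus strand: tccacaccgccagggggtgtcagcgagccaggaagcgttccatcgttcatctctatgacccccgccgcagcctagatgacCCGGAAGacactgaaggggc
Ndufs7, chr10:80249349-80249448, plus strand: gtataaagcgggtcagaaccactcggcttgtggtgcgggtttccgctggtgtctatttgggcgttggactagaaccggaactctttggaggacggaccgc
Atp5g3, chr2:73911327-73911426, minus strand: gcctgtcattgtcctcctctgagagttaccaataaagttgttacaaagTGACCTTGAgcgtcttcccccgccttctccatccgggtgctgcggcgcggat
Sdhd, chr9:50603850-50603949, minus strand: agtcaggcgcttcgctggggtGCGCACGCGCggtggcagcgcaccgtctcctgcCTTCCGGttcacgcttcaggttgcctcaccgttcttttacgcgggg

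The capitals mark the ETS family (GABPA) motif CCGGAAG in Ndufb7, its reverse complement in Sdhd, the NRF1 motif in Sdhd and the reverse complement of the ERR motif TCAAGGTCA in Atp5g3. No match to the 4 motifs searched fell in the Ndufs7 stretch, but its window held a YY1 match (AANATGGCG) after the start site. The windows also held an NRF1 match after the start site of Atp5g3 and an ERR match after that of Sdhd. Over the whole windows, the NRF1 motif was found in 17 of 64 members (26.6%), against 7.17% of protein-coding genes and 5.19% of all genes with a window. The ETS motif was found in 16 of 64 (25%), against 12.9% of protein-coding and 9.93% of all genes. The YY1 motif AANATGGCG was found in 10 of 64 (15.6%), against 3.64% and 2.76%, and the ERR motif in 2 of 64 (3.12%), against 0.377% and 0.466%. Both strands were searched and different motifs did not overlap in the members; these matches describe letters in a window and not binding.

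The 77 genes varied together from library to library, and this variation was as large as any difference between groups. For each library the median over the 77 genes of the log2 CPM minus the mean of its sex was taken. It ran from -0.198 in male control CVS replicate 3, where 1 of 77 genes was above the mean of the males, to 0.104 in male mutant NS replicate 2, where 71 of 77 were above it. Of the 38 libraries, 9 had 60 or more genes above the mean, and 5 had 17 or fewer. The share of all tested genes above the mean lay between 49.4% and 53.3% in every library. TMM scaling centres the bulk of genes in each library, so that share could hardly move and does not set the members apart. Cytosolic ribosomal protein genes ran from -0.285 to 0.154 on the same measure.

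By group, this deviation averaged 0.031 ± 0.043 in male mutant CVS (n = 4), -0.0093 ± 0.108 in male mutant NS (n = 3), -0.025 ± 0.107 in male control CVS (n = 6) and 0.024 ± 0.040 in male control NS libraries (n = 5, SD). In females it averaged 0.021 ± 0.043 in mutant CVS, -0.035 ± 0.032 in mutant NS, 0.013 ± 0.033 in control CVS and 0.0096 ± 0.058 in control NS libraries (SD, n = 5 each). All groups of a sex overlapped. The SD between replicates was 0.081 over the male groups and 0.043 over the female groups, on the log2 scale.

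**Figure D2:**
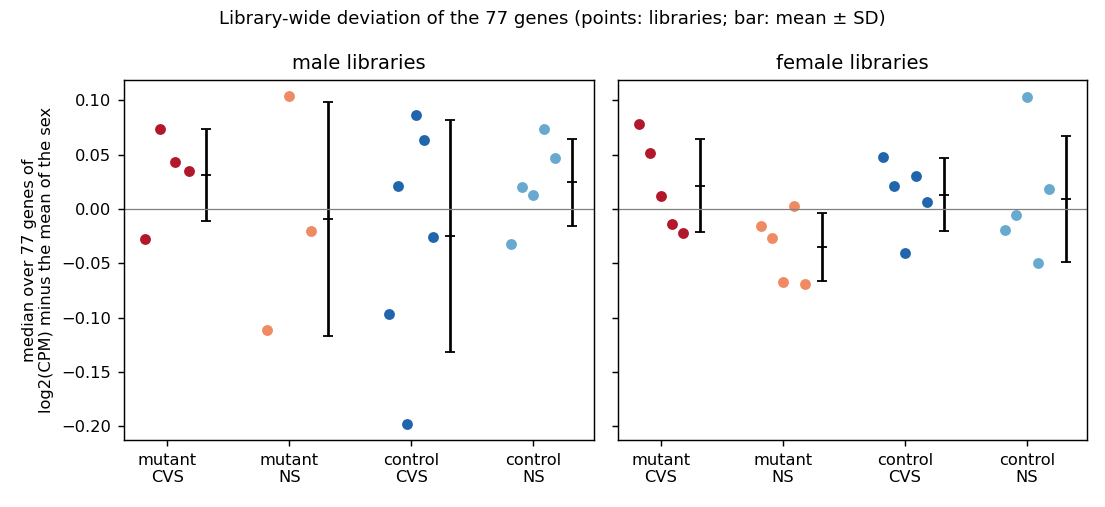
Median deviation of the 77 genes in each library (log2 CPM minus the mean of the sex), by group; points are libraries and bars are group means ± SD. Male control CVS replicate 3 lies lowest at -0.198 and the groups overlap in both sexes.

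Other gene groups also stood low or high in the libraries where the 77 genes lay lowest and highest, but not in every library. In male control CVS replicate 3, cytosolic ribosomal protein genes had a median deviation of -0.285, mitochondrial ribosomal protein genes -0.105, the shortest of 4 equal length bins of all tested transcripts -0.069 and the longest bin 0.049. In male mutant NS replicate 2 the same 4 values were 0.136, 0.064, 0.047 and -0.037. Male control CVS replicate 5 had 66 of the 77 genes above the mean (median deviation 0.064). There the 4 values were -0.020, 0.0032, -0.0033 and 0.013. Female control NS replicate 3 had 71 of 77 above (0.104), with cytosolic ribosomal protein genes at 0.0045. The 77 genes are short, with a median transcript of 732 bases. The part of transcript length or RNA quality in these library-wide values was not tested beyond the offset given below.

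The level of single members varied little between libraries of a sex. The coefficient of variation over the libraries of a sex had a median of 7.17% in males and 5.92% in females, against 7.68% and 7.64% for all genes in the same range of CPM. Uqcrfs1 (3.04% in males, 3.07% in females), Atp5a1 (3.20% and 3.68%) and Sdha (3.48% and 3.05%) were among the steadiest in both sexes, whereas Ndufs1 stood at 3.18% in males and 5.77% in females. Cox6a2 (25.7% in males, 23.8% in females) and Ndufb8 (21.7% and 12.1%) varied most in both sexes. Atp5k, the e subunit of the ATP synthase, was the third in males at 15.2%, while in females Ndufb2 (11.5%) and Cox7a2l (10.4%) stood above its 10.2%. The median in complex II was 4.04% in males and 4.43% in females.

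No member passed the test in any of the 14 comparisons (edgeR's quasi-likelihood test on raw counts, Benjamini-Hochberg adjusted p under 0.05 over all tested genes). Limma voom also called 0 of 77 in each. The p-values set a difference between groups against the spread between these libraries. DESeq2 called 1 of 77 in 3 of the 14, named below, and 0 in the rest. Differences below are therefore values and not calls, and comparisons that share a group of libraries are not independent of each other. Genes named for the smallest p were picked from 77, so a lack of overlap between their groups follows in part from that choice. How many of all tested genes lacked overlap was not counted, so overlap is given as description only.

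Stress in male mutants (4 CVS against 3 NS libraries) left all 77 genes uncalled. Of them, 63 had a positive log2 fold change and 14 a negative one, with a median of 0.033 against 0.00025 over all tested genes, and 4 had an unadjusted p under 0.05. Of 17212 genes tested, 0 (0%) were called by edgeR, 0 by DESeq2 and 0 by limma voom, with 581 (3.38%) at an unadjusted p under 0.05. The median was -0.011 without mutant NS replicate 1, 0.098 without mutant NS replicate 2, 0.056 without the library labelled mutant CVS replicate 1, and 0.157 without the 3 libraries with high Cdhr1, which leaves 1 mutant NS library.

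In this comparison Ndufa11, an accessory subunit of the membrane arm of complex I, stood at 60.14, 69.19, 67.62 and 60.28 CPM in male mutant CVS libraries, against 52.74, 60.78 and 58.46 CPM in mutant NS libraries. The lowest pair of CVS libraries lay below the highest NS library. Mutant NS replicates 2 and 3 were among the libraries with high Cdhr1, and Ndufa11 is not given without them. Its log2 fold change was 0.17 ± 0.069 (SE; edgeR adjusted p 1.00). Atp5g3 (0.15 ± 0.064) and Ndufb7 (0.14 ± 0.059) had the next smallest p, and Atp5s (-0.11 ± 0.098), Atp5l (-0.07 ± 0.094) and Ndufa8 (-0.04 ± 0.059) the smallest p on the negative side. Without the library labelled mutant CVS replicate 1, the log2 fold changes were 0.20 for Ndufa11, 0.15 for Atp5g3 and 0.15 for Ndufb7.

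Stress in male controls (6 CVS against 5 NS libraries) gave negative values in most members. Of 77 genes, 9 were positive and 68 negative, the median was -0.049 against 0.00026 over all genes, and 0 passed, against 2 of 17212 genes (0.0116%) called. There were 4 members that had an unadjusted p under 0.05, as did 1272 genes (7.39%). Negative members made up 33 of 35 in complex I (median -0.06), 7 of 9 in complex III (-0.049), 12 of 12 in complex IV (-0.040) and 14 of 16 in the ATP synthase (-0.041), but 1 of 4 in complex II (median 0.025). Without control CVS replicate 3 the median was -0.017, and without control CVS replicate 5 it was -0.078. It was -0.034 without the 3 libraries with high Cdhr1. Cytosolic ribosomal protein genes were negative in 68 of 79 with a median of -0.048, and the shortest length bin of transcripts had a median of -0.020. Endothelial and pericyte markers were negative in 13 of 14 (median -0.139), with a summed level of 396.7 to 463.3 CPM in control CVS libraries, against 432.9 to 532.7 CPM in control NS libraries. Microglia markers were negative in 11 of 12 (-0.106), astrocyte markers in 11 of 12 (-0.079) and somatostatin interneuron markers in 11 of 12 (-0.071). Their part in the members' values was not tested.

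Ndufb7 ranged from 41.61 to 48.32 CPM with a median of 47.1 in male control CVS libraries, and stood at 53.07, 52.37, 48.28, 51.56 and 53.49 CPM in control NS libraries. A single CVS library lay above the lowest NS library. Its log2 fold change was -0.16 ± 0.046 (SE; unadjusted p 0.0015, edgeR adjusted p 0.431). Atp5o ranged from 52.45 to 69.3 CPM with a median of 60.98 in CVS libraries, and from 66.38 to 68.06 CPM in the 5 NS libraries (log2 fold change -0.15 ± 0.057). The highest CVS library was above all NS libraries. Atp5g3 followed at -0.12 ± 0.050, and Sdhc (0.05 ± 0.0425), Uqcrc2 (0.04 ± 0.043) and Sdhd (0.05 ± 0.050) had the smallest p on the positive side.

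Under stress, male mutants (4 libraries) and controls (6 libraries) had the smallest p in Ndufb7. It stood at 52.5, 53.98, 53.18 and 52.95 CPM in male mutant CVS libraries, against 45.31, 48.32, 41.61, 47.18, 47.89 and 47.06 CPM in control CVS libraries. The groups did not overlap. The log2 fold change was 0.20 ± 0.049 (SE; 95% interval 0.10 to 0.30), with an edgeR adjusted p of 0.175, a limma voom adjusted p of 0.205 and a DESeq2 adjusted p of 0.0298. It was 0.21 (edgeR adjusted p 0.311) without the library labelled mutant CVS replicate 1, and 0.13 (0.419) with the length and GC offset.

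Atp5g3 stood at 156.8, 170.5, 151.7 and 140.6 CPM in male mutant CVS libraries, and ranged from 128.1 to 151.7 CPM with a median of 136.7 in control CVS libraries. The groups overlapped. Its log2 fold change was 0.17 ± 0.054 (SE; edgeR adjusted p 0.432), followed by Ndufa2 at 0.20 ± 0.080. Without the library labelled mutant CVS replicate 1, Atp5g3 stood at 0.17 (edgeR adjusted p 0.584) and Ndufa2 at 0.25. Atp5l (-0.09 ± 0.080), Atp5s (-0.09 ± 0.083) and Atp5h (-0.04 ± 0.057) had the smallest p on the negative side.

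Of the 77 genes, 64 were positive and 13 negative in this comparison, with a median of 0.059 against -0.0023 over all genes. EdgeR called 0 of 77, against 9 of 17212 genes (0.0523%), and 7 members had an unadjusted p under 0.05, as did 1311 genes (7.62%). Positive members made up 30 of 35 in complex I, 3 of 4 in complex II, 8 of 9 in complex III, 10 of 12 in complex IV and 13 of 16 in the ATP synthase. Cytosolic ribosomal protein genes were positive in 78 of 79 (median 0.107), while the 13 mitochondrially encoded protein genes were positive in 3 (median -0.055). The 12 oligodendrocyte markers were negative in 12 (median -0.24), with a summed level of 1139 to 1925 CPM in mutant CVS libraries, against 1382 to 2007 CPM in control CVS libraries. In the same order, parvalbumin interneuron markers summed to 366.1 to 417.0 against 390.3 to 481.4 CPM. Astrocyte markers summed to 6053 to 6475 against 6408 to 7063 CPM. Somatostatin interneuron markers went the other way, at 629.7 to 675.6 against 578.9 to 647.5 CPM. Excitatory neuron markers summed to 6867 to 7732 against 6765 to 8021 CPM. Their part in the members' values was not tested. The median of the 77 was 0.029 without control CVS replicate 3, 0.0805 without the library labelled mutant CVS replicate 1 and 0.040 without the 3 libraries with high Cdhr1.

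Without stress, male mutants (3 libraries) had slightly lower values than controls (5 libraries) in most members. Of 77 genes, 17 were positive and 60 negative, with a median of -0.028 against -0.0015 over all genes, and 0 passed, against 3 of 17212 genes (0.0174%) called, 2 higher (0.0116%) and 1 lower (0.00581%). The unadjusted p was under 0.05 for 2 members and for 1055 genes (6.13%). The median changed sign, to 0.024, without mutant NS replicate 1, was -0.085 without mutant NS replicate 2, and was -0.130 without the 3 libraries with high Cdhr1. Complex II stood at 3 of 4 positive, and the mitochondrially encoded protein genes at 0 of 13 (median -0.083). Beside these, astrocyte markers were negative in 12 of 12 (median -0.107), endothelial and pericyte markers in 13 of 14 (-0.124), oligodendrocyte markers in 11 of 12 (-0.165), microglia markers in 9 of 12 (-0.108) and parvalbumin interneuron markers in 7 of 7 (-0.075), and their part in the members' values was not tested.

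Sdhd had the smallest p on the positive side. It stood at 63.07, 65.03 and 60.9 CPM in male mutant NS libraries, against 59.48, 58.3, 61.1, 55.58 and 54.93 CPM in control NS libraries. Mutant NS replicates 2 and 3 had high Cdhr1, and Sdhd is not given without them. The lowest mutant library lay just below the highest control library, and the log2 fold change was 0.12 ± 0.060 (SE; edgeR adjusted p 0.818). Ndufa8 (0.06 ± 0.056) and Sdhc (0.04 ± 0.051) followed, and Atp5o (-0.15 ± 0.069), Ndufb3 (-0.15 ± 0.072) and Ndufb9 (-0.17 ± 0.091) had the smallest p on the negative side.

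The interaction in males, the stress difference in mutants minus that in controls, was positive in 69 of 77 genes, with a median of 0.082 against -0.0016 over all genes. It contains all 4 male groups and so repeats the comparisons above. No gene of 17212 (0%) was called by edgeR, DESeq2 or limma voom, with 720 genes (4.18%) and 7 members at an unadjusted p under 0.05. Positive values made up 33 of 35 in complex I (median 0.106), 2 of 4 in complex II (0.0052), 8 of 9 in complex III (0.112), 12 of 12 in complex IV (0.080) and 14 of 16 in the ATP synthase (0.059). The median was 0.029 without mutant NS replicate 1, 0.055 without control CVS replicate 3, 0.145 without mutant NS replicate 2, 0.105 without the library labelled mutant CVS replicate 1 and 0.187 without the 3 libraries with high Cdhr1.

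The smallest p of an interaction was again that of Ndufb7 (0.30 ± 0.075, SE; unadjusted p 0.00037, edgeR adjusted p 0.995), whose male mutant NS libraries stood at 45.51, 50.23 and 48.94 CPM. Atp5g3 (0.27 ± 0.081) and Ndufa11 (0.24 ± 0.0875) followed, and Sdhc (-0.07 ± 0.069), Atp5l (-0.10 ± 0.120) and Sdhd (-0.04 ± 0.081) had the smallest p among the negative ones. The interaction was 0.31 for Ndufb7, 0.27 for Atp5g3 and 0.27 for Ndufa11 without the library labelled male mutant CVS replicate 1. Beside these, cytosolic ribosomal protein genes were positive in 71 of 79 (median 0.102), mitochondrial import genes in 17 of 20 (0.035) and proteasome subunits in 29 of 37 (0.045). Genes of the tricarboxylic acid cycle were positive in 13 of 23 (0.012), assembly factors of the respiratory chain in 23 of 49 (-0.0063) and regulators of mitochondrial biogenesis in 6 of 19 (-0.074). Endothelial and pericyte markers were positive in 10 of 14 (0.104), microglia markers in 10 of 12 (0.098), excitatory neuron markers in 7 of 10 (0.074) and parvalbumin interneuron markers in 3 of 7 (-0.081), and their part in the members' values was not tested. None of these list members was called.

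**Figure D3:**
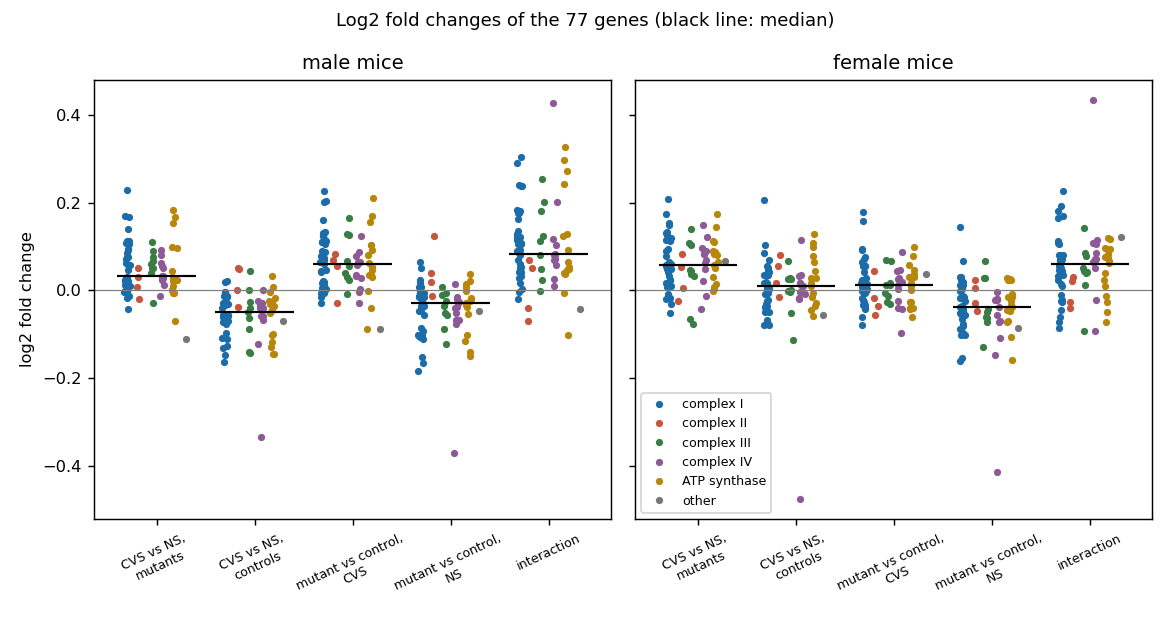
Log2 fold changes of the 77 genes in the 5 comparisons of each sex, coloured by complex; black lines are medians. Medians are 0.082 and 0.059 for the male and female interaction, and the outlying complex IV gene is Cox6a2.

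In female mutants (5 CVS against 5 NS libraries), stress gave positive values in 66 of 77 genes, with a median of 0.057 against 0.00085 over all genes. No gene of 16435 (0%) was called by edgeR; limma voom called 0 and DESeq2 27, 1 of them a member. Unadjusted p was under 0.05 for 15 members and for 1300 genes (7.91%). Positive values made up 30 of 35 in complex I, 3 of 4 in complex II, 7 of 9 in complex III, 10 of 12 in complex IV and 15 of 16 in the ATP synthase. Cytosolic ribosomal protein genes were positive in 76 of 79 (median 0.111), mitochondrially encoded protein genes in 12 of 12 (0.077) and the shortest length bin of transcripts had a median of 0.033. With the length and GC offset the median of the 77 was 0.0064.

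Ndufs7 had the smallest p. It stood at 75.62, 75.76, 74.56, 70.75 and 71.06 CPM in female mutant CVS libraries, against 66.55, 67.79, 62.89, 66.74 and 62.37 CPM in mutant NS libraries. Every CVS library lay above every NS library. The log2 fold change was 0.17 ± 0.043 (SE; 95% interval 0.09 to 0.26), with an edgeR adjusted p of 0.259, a limma voom adjusted p of 0.224 and a DESeq2 adjusted p of 0.0390, and with the offset it was 0.07 (edgeR adjusted p 0.914). Cox6b1 (0.15 ± 0.044) and Atp5d, the delta subunit of the ATP synthase (0.11 ± 0.036), followed. Uqcrc2 (-0.07 ± 0.040), Uqcrb (-0.08 ± 0.052) and Ndufs1 (-0.05 ± 0.050) had the smallest p on the negative side.

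In female controls (5 CVS against 5 NS libraries), stress gave 45 positive and 32 negative values, with a median of 0.010 against 0.000073 over all genes. No gene of 16435 (0%) was called by edgeR; limma voom called 0 and DESeq2 25, none of them a member. Unadjusted p was under 0.05 for 7 members and for 1433 genes (8.72%). The median changed sign with the length and GC offset (-0.019), without control NS replicate 4 (-0.012) and without control CVS replicate 1 (-0.0039), and was 0.029 without control NS replicate 3.

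Ndufa7, an accessory subunit of the peripheral arm of complex I, stood at 47.0, 46.75, 45.35, 48.33 and 44.02 CPM in female control CVS libraries, against 41.71, 40.52, 41.7, 36.6 and 40.26 CPM in control NS libraries. The groups did not overlap. For Ndufa7 the log2 fold change was 0.21 ± 0.053 (SE; 95% interval 0.10 to 0.31), with an edgeR adjusted p of 0.239, a limma voom adjusted p of 0.202 and a DESeq2 adjusted p of 0.0537. Atp5o (0.11 ± 0.0485) and Atp5j2, the f subunit (0.13 ± 0.058), followed.

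Cox6a2, whose transcript is known from parvalbumin interneurons in mouse cortex, had the log2 fold change farthest from 0 in this comparison. It stood at 3.26, 3.71, 2.79, 2.36 and 3.51 CPM in female control CVS libraries, against 3.93, 3.55, 5.91, 4.36 and 3.95 CPM in control NS libraries. The groups overlapped at 1 library. For Cox6a2 the log2 fold change was -0.48 ± 0.172 (SE; 95% interval -0.83 to -0.13; edgeR adjusted p 0.419). The other 7 parvalbumin interneuron markers were positive in 2 (median -0.043), and Pvalb itself stood at -0.05 ± 0.119. In the other comparisons of females, Cox6a2 stood at -0.04 ± 0.176 for stress in mutants, -0.42 ± 0.172 for genotype without stress, 0.02 ± 0.177 for genotype under stress and 0.43 ± 0.246 for the interaction. In males, Cox6a2 stood at 0.09 ± 0.255 for stress in mutants, -0.34 ± 0.196 for stress in controls, 0.06 ± 0.214 for genotype under stress, -0.37 ± 0.241 for genotype without stress and 0.43 ± 0.322 for the interaction. None of these was called. Uqcrb (-0.11 ± 0.052) and Ndufa10 (-0.08 ± 0.038) followed Cox6a2 on the negative side.

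Without stress, female mutants (5 libraries) had lower values than controls (5 libraries) in most members. Of 77 genes, 18 were positive and 59 negative, with a median of -0.038 against 0.0018 over all genes. No member passed, against 21 of 16435 genes (0.128%) called by edgeR, 7 higher (0.0426%) and 14 lower (0.0852%), and 9 members and 1327 genes (8.07%) had an unadjusted p under 0.05. Complex IV was negative in 12 of 12 (median -0.048), complex I in 26 of 35 (-0.036), complex III in 6 of 9 (-0.051), the ATP synthase in 12 of 16 (-0.029) and complex II in 2 of 4 (-0.013). The median was -0.013 without control NS replicate 3 and -0.018 with the length and GC offset. Cytosolic ribosomal protein genes had median deviations of -0.071 to 0.014 in mutant NS libraries, against -0.148 to 0.0045 in control NS libraries.

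Ndufs7 stood at 66.55, 67.79, 62.89, 66.74 and 62.37 CPM in female mutant NS libraries, against 72.92, 73.93, 76.72, 71.39 and 69.92 CPM in control NS libraries. Every mutant library lay below every control library. The log2 fold change was -0.16 ± 0.043 (SE), with an edgeR adjusted p of 0.136, a limma voom adjusted p of 0.132 and a DESeq2 adjusted p of 0.0353, and -0.11 (edgeR adjusted p 0.525) with the offset. The mutant NS libraries are the same ones as in the stress comparison of female mutants, so the 2 differences of Ndufs7 share them.

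Cox6a1 stood at 216.7, 218.2, 201.6, 226.8 and 211.7 CPM in female mutant NS libraries, against 233.2, 244.3, 252.0, 220.8 and 240.1 CPM in control NS libraries. A single control library lay below the highest mutant library. For Cox6a1 the log2 fold change was -0.15 ± 0.041 (SE; edgeR adjusted p 0.173), and that of Atp5g1 was -0.16 ± 0.044 (0.163). Ndufb4 (0.14 ± 0.065), Uqcrc2 (0.07 ± 0.040) and Ndufa7 (0.07 ± 0.053) had the smallest p on the positive side. Beside these members, the 7 parvalbumin interneuron markers were negative in 7 of 7 (median -0.19), with Pvalb at -0.49 ± 0.122 (edgeR adjusted p 0.138) and Cox6a2 at -0.42 ± 0.172 (0.494), and the mitochondrially encoded protein genes in 11 of 12 (-0.084). The summed level of the parvalbumin interneuron markers ran from 363.0 to 404.7 CPM in mutant NS libraries, against 400.2 to 443.4 CPM in control NS libraries. The part of parvalbumin interneurons in the members' values was not tested.

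Under stress, female mutants and controls (5 libraries each) were compared last within the sex. Of the 77 genes, 45 were positive and 32 negative, with a median of 0.012 against -0.00048 over all genes. No member passed, against 4 of 16435 genes (0.0243%) called by edgeR, and 0 members had an unadjusted p under 0.05, against 1164 genes (7.08%). The smallest p among positive values belonged to Ndufb2 (0.18 ± 0.092), Ndufa5 (0.09 ± 0.0505) and Atp5mpl (0.10 ± 0.059), and among negative ones to Ndufv1, Sdhb and Ndufa13. The 95% interval of the log2 fold change lay within 0.5 of 0 for all 77 genes. The median changed sign without mutant CVS replicate 1 (-0.0056) and without control CVS replicate 3 (-0.0030), and was 0.023 without control CVS replicate 1.

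The female interaction was positive in 60 of 77 genes, with a median of 0.059 against 0.0013 over all genes. No gene of 16435 (0%) was called by edgeR, DESeq2 or limma voom, with 2 members and 658 genes (4%) at an unadjusted p under 0.05. Ndufs7 (0.16 ± 0.061), Ndufa5 (0.18 ± 0.072) and Uqcr11 (0.14 ± 0.073) had the smallest p, and Uqcrc2 (-0.09 ± 0.057), Ndufa7 (-0.07 ± 0.075) and Ndufb4 (-0.09 ± 0.092) the smallest among the negative ones. Complex II again had 2 of 4 positive (median -0.0037), against 27 of 35 in complex I, 8 of 9 in complex III, 10 of 12 in complex IV and 12 of 16 in the ATP synthase. The median was 0.027 without control NS replicate 3. Beside these, astrocyte markers were positive in 12 of 12 (median 0.089), endothelial and pericyte markers in 11 of 14 (0.148) and oligodendrocyte markers in 9 of 12 (0.121), and their part in the members' values was not tested.

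Ndufb7, whose interaction had the smallest p in males, varied within the groups in females. It stood at 52.35, 51.76, 53.34, 49.16 and 45.64 CPM in female mutant CVS, 48.11, 47.46, 44.94, 48.5 and 49.76 CPM in mutant NS, 57.77, 50.46, 46.68, 50.61 and 49.92 CPM in control CVS and 51.73, 48.35, 53.42, 48.3 and 46.24 CPM in control NS libraries. All 4 groups overlapped, and the female interaction was 0.04 ± 0.0777, and -0.01 with the length and GC offset. The difference of the interaction between the sexes (male minus female) was 0.27 ± 0.107 for Ndufb7, 0.25 ± 0.0925 for Atp5g3 and 0.27 ± 0.113 for Atp5o (SE), each with an edgeR adjusted p of 1.00. Without the library labelled male mutant CVS replicate 1, this difference was 0.27 for Ndufb7 and 0.24 for Atp5g3. On the negative side Atp5l stood at -0.20 ± 0.178, Ndufa5 at -0.15 ± 0.152 and Sdhc at -0.10 ± 0.102.

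**Figure D4:**
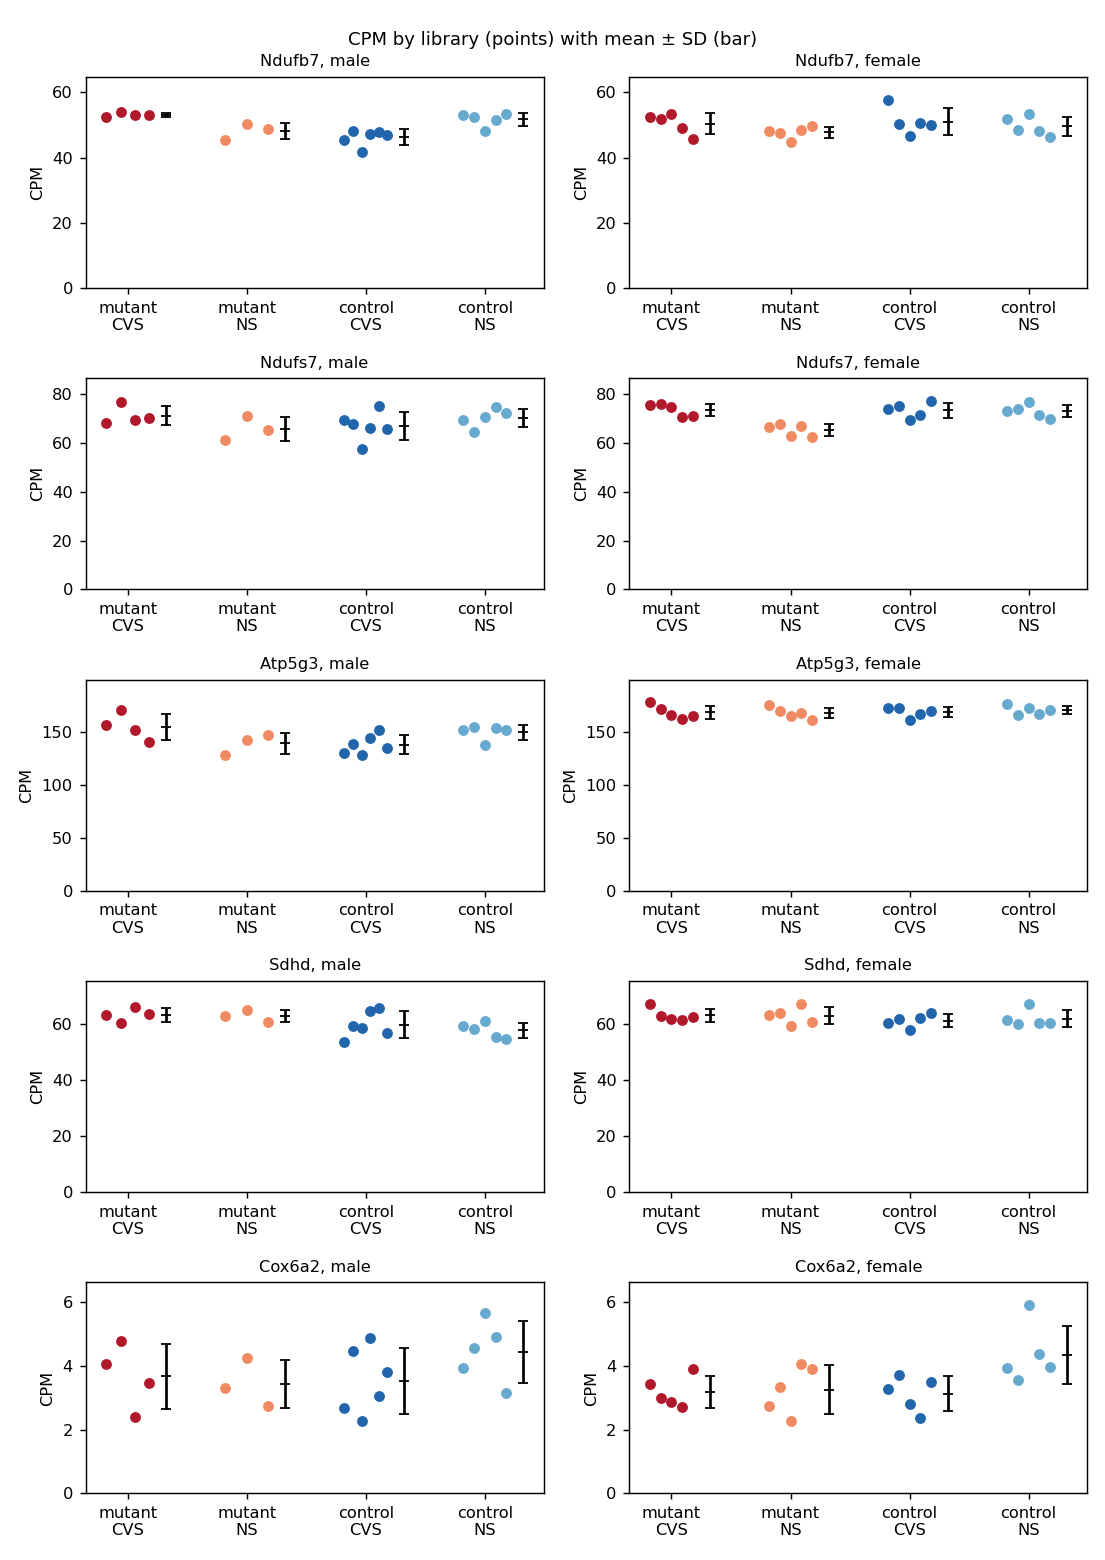
CPM of Ndufb7, Ndufs7, Atp5g3, Sdhd and Cox6a2 in every library by group and sex; points are libraries and bars are group means ± SD, with axes from 0. Ndufb7 does not overlap between male mutant CVS and male control CVS libraries, and all female mutant NS libraries lie below all other female libraries in Ndufs7. Both genes were named for a small p, so the lack of overlap follows in part from that choice.

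Over all 38 libraries, the interaction averaged over the sexes was positive in 67 of 77 genes (median 0.063 against -0.0029 over all genes). No gene of 17671 (0%) was called by edgeR, DESeq2 or limma voom, with 13 members and 877 genes (4.96%) at an unadjusted p under 0.05. Ndufs7 (0.17 ± 0.052), Atp5g3 (0.15 ± 0.046) and Ndufb7 (0.17 ± 0.054) had the smallest p, each with an edgeR adjusted p of 0.917. Complex I was positive in 33 of 35, complex II in 2 of 4, complex III in 8 of 9, complex IV in 11 of 12 and the ATP synthase in 12 of 16. On the negative side Uqcrc2 (-0.04 ± 0.044), Ndufs1 (-0.03 ± 0.048) and Sdhc (-0.02 ± 0.051) came first. The median was 0.0729 without the library labelled male mutant CVS replicate 1, 0.101 without male mutant NS replicate 2 and 0.113 without the 3 libraries with high Cdhr1. The difference of the interaction between the sexes had a median of 0.033 and was positive in 49 of 77, with 0 of 17671 genes (0%) called by edgeR, DESeq2 or limma voom and 571 genes (3.23%) and 3 members at an unadjusted p under 0.05. That median was -0.0094 without male mutant NS replicate 1, -0.0066 without male control CVS replicate 3, 0.0492 without the library labelled male mutant CVS replicate 1 and 0.103 without male mutant NS replicate 2.

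Averaged over sex and genotype, stress gave 57 positive and 20 negative members (median 0.017), with 0 called against 3 of 17671 genes (0.017%), and 5 members and 1655 genes (9.37%) at an unadjusted p under 0.05. Ndufa7 (0.09 ± 0.029, edgeR adjusted p 0.322), Ndufs6 (0.08 ± 0.033) and Ndufs5 (0.06 ± 0.026) had the smallest p, and Cox6a2 (-0.19 ± 0.102), Uqcrb (-0.05 ± 0.035) and Atp5b (-0.03 ± 0.018) the smallest on the negative side. The median was 0.0257 without the library labelled male mutant CVS replicate 1, 0.0057 without male mutant NS replicate 1, 0.030 without male mutant NS replicate 2 and 0.044 without the 3 libraries with high Cdhr1.

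Averaged over sex and stress, the genotype comparison had the most calls of any (193 of 17671 genes, 1.09%, with 60 higher, 0.34%, and 133 lower, 0.753%), and 0 of the 77 were among them, and 1 member and 1981 genes (11.2%) had an unadjusted p under 0.05. The members were 36 positive and 41 negative, with a median of -0.0023, which changed sign in 11 of 38 runs that left out 1 library and lay between -0.015 and 0.011 in them. It was 0.0032 without the library labelled male mutant CVS replicate 1, and it was -0.023 without the 3 libraries with high Cdhr1. That 1 member was Sdhd, at 0.07 ± 0.025 (edgeR adjusted p 0.219). Ndufs8 (0.04 ± 0.026) and Ndufa7 (0.04 ± 0.029) followed, and Cox6a1 (-0.05 ± 0.027), Atp5g1 (-0.05 ± 0.025) and Cox6a2 (-0.18 ± 0.102) had the smallest p on the negative side. The median half-width of the 95% interval was 0.058 on the log2 scale, and the interval lay within 0.5 of 0 for all 77 genes. The 7 parvalbumin interneuron markers were negative in 7 of 7 (median -0.10) and the 12 oligodendrocyte markers in 12 of 12 (median -0.14).

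Subunits of the catalytic and electron-carrying core differed in how far their log2 fold changes spread over the 10 comparisons within a sex. The log2 fold changes of Ndufs1 lay between -0.05 and 0.02, those of Ndufv1 between -0.06 and 0.05 and those of Atp5a1 between -0.03 and 0.05. Those of Uqcrfs1 lay between -0.05 and 0.05 and those of Sdha between -0.04 and 0.07. Cyc1 lay between -0.04 and 0.08 and Atp5b between -0.06 and 0.06. Those of Ndufs7, also a core subunit, ran wider, between -0.16 and 0.18. Cox5a, a complex IV subunit outside this core, lay between -0.12 and 0.20. These ranges include the interactions, and none of these values was called.

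An offset for transcript length and GC content, fitted in each library over all tested genes, moved the median of the 77 towards 0 in 9 of the 10 comparisons within a sex and past it in female control stress. With the offset the male interaction had a median of 0.040 and the female one 0.028. Stress in male mutants stood at 0.019, stress in male controls at -0.018, male genotype under stress at 0.025 and without stress at -0.016. Female genotype stood at 0.00049 under stress. In the comparisons over both sexes, the offset gave a median of 0.00089 for stress, with 43 of 77 genes positive, against 57 from the counts as deposited, and of 0.033 for the interaction, with 55 positive. It gave 0.0077 for the difference of the interaction between the sexes, with 42 positive, and -0.0044 for genotype, with 34 positive. Counts with the offset gave no called member, and length and GC content were known for 97.8% to 98.1% of tested genes.

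**Figure D5:**
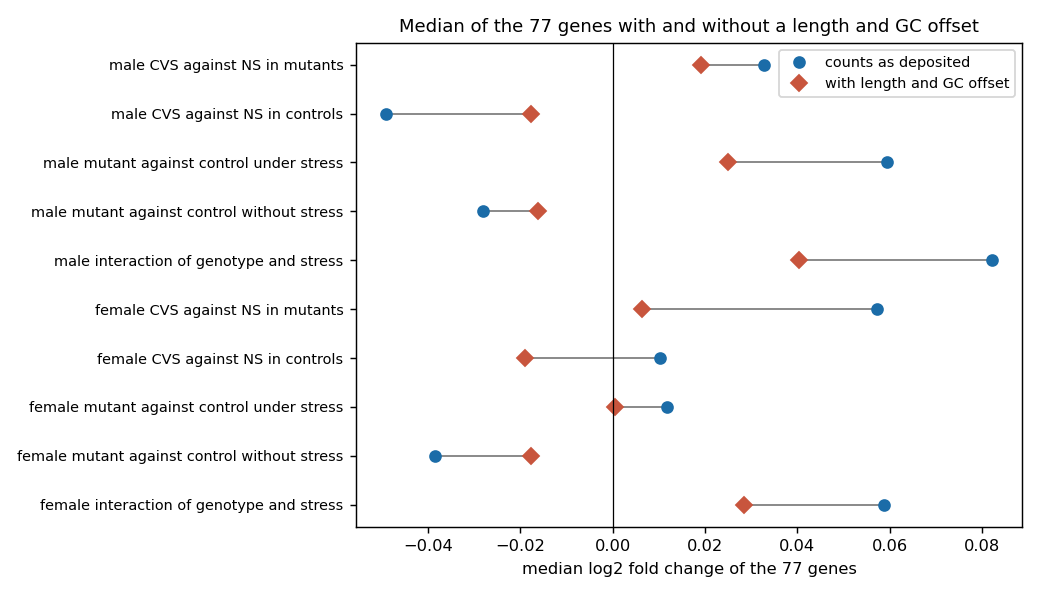
Median log2 fold change of the 77 genes in each comparison within a sex, from the counts as deposited (circles) and with an offset for transcript length and GC content (diamonds). The male interaction moves to 0.040 with the offset, against 0.082 from the counts as deposited.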

How the data were processed

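Medial prefrontal cortex RNA of 38 mice was sequenced, 1 library per labelled sample. The authors deposited raw counts per gene; per the submitters' processing notes the tools were fastp 0.23.2, STAR 2.7.10b and featureCounts with GRCm39, and per the labels' protocols the library kit was directional. No source used here gives the annotation release or strand setting, and overlapping, antisense and near-identical genes are therefore uncertain. Symbols, transcript lengths and GC content came from GENCODE (GRCm38), which gave 52029 of 57010 IDs a symbol; no coordinates were taken from it. Genotype labels were taken as given.

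Counts were tested with edgeR 4.0.16 (quasi-likelihood, robust, TMM, filterByExpr with a minimum count of 10 and total of 15, Benjamini-Hochberg over all tested genes, threshold 0.05), in 1 fit per sex for 10 comparisons and 1 fit of all 38 libraries for the other 4. SEs are the log2 fold change over the root of F, and intervals are 95%. Alternatives used limma 3.58.1 (voom), DESeq2 1.42.0, sva 3.50.0, other scalings and filters, a length and GC offset, and libraries left out. The code was tested on simulated data. Totals of 17.64 M to 27.51 M counts limit precision to the intervals given. Of 74 replicate pairs, 0 were identical, and their chi-square per degree of freedom was 2.904 to 11.28. Named genes were the 3 smallest p in each direction per comparison, core subunits, isoform sets and the 3 highest and lowest levels. The members and lists were chosen with earlier results of these data known. Some items are not reported here.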

Additional observations from a re-analysis of the deposited data

Results flagged for a closer look

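Of 98 group tests over 14 quantities, 6 found a library far from the others of its group; chance gives such a gap in about 1 of 20 groups. Ndufb8 stood at 5.218 CPM in male control CVS replicate 3, against 13.03 to 17 CPM in the other libraries of that group, and this library also had the lowest median deviation of the 77 genes. Atp5o stood at 60.19 CPM in the library labelled male mutant CVS replicate 1, whose genotype marks were mixed, against 66.15 to 67.33 CPM in the rest of its group. Atp5g3 stood at 137.5 CPM in male control NS replicate 3, where the others held 151.3 to 154.3 CPM. In female control NS libraries, Ndufa7 was low in replicate 4 at 36.6 CPM (40.26 to 41.71 CPM in the others) and Sdhd was high in replicate 3 at 67.38 CPM (60.19 to 61.66 CPM in the others). Sdhd was also high in female mutant CVS replicate 1 at 67.4 CPM, the others standing at 61.49 to 63.13 CPM.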

How the results depend on the processing

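No paired analysis was possible because the labels give no replicate numbers shared between groups. EdgeR called 0 members under every alternative run, with each library left out too; limma voom also called 0, and DESeq2 called 1 in 3 comparisons: male genotype under stress, female stress in mutants and female genotype without stress. Counts of all called genes depended on the tool and filter. With no low-count filter they were 15 (male stress in controls), 11 (male genotype without stress), 43 (male genotype under stress), 51 (female stress in controls), 36 (female stress in mutants), 118 (female genotype without stress), 23 (female genotype under stress), 5 (female interaction) and 6 (pooled stress). DESeq2 gave 19, 26, 25, 27, 85, 10, 29 and 295 for male stress in controls, male genotype under stress, female stress in controls, female stress in mutants, female genotype without stress, female genotype under stress, pooled stress and pooled genotype. Limma voom gave 0 for male stress in controls and male genotype without stress. With only the 2 groups compared, counts were 4 and 6 for male stress in controls and mutants and 2 and 5 for female stress in controls and mutants. The length and GC offset gave 2 for female stress in controls and 11 for female genotype without stress, and a members' median of 0.0064 for female stress in mutants. With 1 surrogate variable, pooled stress gave 5. Without the 3 libraries with high Cdhr1, which leaves 1 male mutant NS library assumed to vary like the other groups, counts were 8 (male stress in mutants), 11 (male genotype without stress), 5 (male genotype under stress), 7 (male interaction), 36 (pooled stress), 93 (pooled genotype), 3 (pooled interaction) and 3 (sex difference), and the members' medians were 0.157, -0.130 and 0.187 for male stress in mutants, male genotype without stress and the male interaction, and 0.135 for the sex difference. Leaving out 1 library gave 0 to 3 genes for male stress in controls, 0 to 6 for male genotype without stress, 1 to 12 for male genotype under stress, 0 to 9 for female stress in controls, 0 to 12 for female stress in mutants, 6 to 47 for female genotype without stress, 2 to 5 for female genotype under stress, 0 to 16 for pooled stress and 101 to 233 for pooled genotype, and a median from -0.0094 to 0.103 for the sex difference. The cause of these changes was not tested. Of the named genes' values, 866 kept direction and side of the threshold, 16 uncalled ones changed sign and 3 passed it.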
